A study of Homo sapiens with 8 samples.

Results

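To describe mRNAs on which much of the ribosome footprint signal lies ahead of the main coding sequence, gene regions were selected from ribosome profiling (Ribo-seq) libraries of OVCAR3, an established human ovarian cancer cell line. A region was taken when its 5′ UTR held at least 100 counts summed over the 8 libraries and at least 20% of its summed 5′ UTR, coding sequence (CDS) and 3′ UTR counts. This rule chose 363 of 20165 regions. It used the shares themselves, so the level of a share is given here as a description and was not tested.

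The libraries came from 2 experiments. In the RACK1 experiment, 1 µg/ml doxycycline for 48 h induced knockdown (pTRIPZ vector) of the endogenous RACK1, a scaffold protein bound to the small ribosomal subunit. Both groups carried this knockdown and re-expressed RACK1, one as wild type (RACK1-WT) and the other with its sites of mono-ADP-ribosylation (MARylation) mutated (RACK1-Mut). In the siRNA experiment, cells were transfected for 48 h with 30 nM control siRNA (siControl) or 30 nM siRNA against OARD1 (siTARG1), the gene of TARG1, a hydrolase that removes ADP-ribose. Each group had 2 libraries. The labels do not say that these were separate cultures, while the study's methods describe its sequencing experiments in general as repeated on independent samples. The p-values measure the spread between these libraries. Tests are DESeq2 Wald tests with Benjamini-Hochberg adjustment over all regions tested, and "called" means an adjusted p under 0.05.

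Scanning ribosomes enter an mRNA at its 5′ end and can begin translation at a start codon upstream of the main one. Such an upstream open reading frame (uORF) often lowers translation of the main frame, and when the initiation factor eIF2 is phosphorylated under stress, some uORF mRNAs, ATF4 above all, keep or raise output of the main protein. Polyamine enzymes, phosphatase subunits that act on eIF2, and several mitochondrial proteins are under uORF control in the same general way. Footprints on a 5′ UTR can therefore mark upstream translation, although fragments of other RNAs that align to a 5′ UTR are counted there too.

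To show where upstream translation could start on the members discussed most, the bases around upstream start codons are printed from 9 bases before to 1 base after the codon, in the sense direction, from the GRCh37 genome, with the start codon in capitals. For MIEF1, ASNSD1, DDIT3, MKKS and SAT1 these frames are annotated coding sequences of their own in GENCODE release 44. For ATF4, ATF5, PPP1R15A, PPP1R15B, AMD1, UCP2 and EIF5 the longest frame that opens with an AUG was taken.
ATF4 (chr22:39917254-39917266, plus strand): attctctagATGg
ATF5 (chr19:50432644-50432656, plus strand): gctgcagccATGg
DDIT3 (chr12:57914260-57914272, minus strand): gagcgtatcATGt
PPP1R15A (chr19:49375802-49375814, plus strand): gagggtgagATGa
PPP1R15B (chr1:204380767-204380779, minus strand): cccgccaggATGg
MIEF1 (chr22:39900227-39900239, plus strand): cagtcccccATGg
ASNSD1 (chr2:190526238-190526250, plus strand): tcggtggaaATGc
MKKS (chr20:10401382-10401394, minus strand): tgaagtactATGa
AMD1 (chr6:111195990-111196002, plus strand): ttacacagtATGg
SAT1 (chrX:23801386-23801398, plus strand): gggagacgaATGa
UCP2 (chr11:73692664-73692676, minus strand): acacatagtATGa
EIF5 (chr14:103801929-103801941, plus strand): catccagcgATGa

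The frames behind these starts differ in length and in where they end. AMD1, S-adenosylmethionine decarboxylase of polyamine synthesis, has a single 5′ UTR AUG that opens a frame of 6 codons and lies 310 nt before the main start. MIEF1, a mitochondrial dynamics factor, carries the 70-codon frame annotated as MIURF, and ASNSD1 carries the 96-codon frame annotated as ASDURF. Frames of ATF5 (59 codons), EIF5 (107 codons) and SAT1 (29 codons) run past the main start codon. That of ATF4 (63 codons) opens 188 nt before the main start, and its stop codon overlaps the main start codon. It was picked by length alone, and which ATF4 upstream frame was translated was not tested. The frame of DDIT3 (34 codons), which encodes the stress transcription factor CHOP, ends within the 5′ UTR, as do those of PPP1R15A (26 codons) and PPP1R15B (51 codons), subunits that direct a phosphatase to eIF2. AZIN1, the antizyme inhibitor, has an annotated upstream coding sequence of 52 codons whose start codon is ATT.

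Over all members with a matching transcript sequence (351 of 363), the 5′ UTRs were longer and held more AUG triplets than those of the 1746 sequenced regions that also had 100 counts but a share below 20%. Median 5′ UTR length was 534 nt against 285 nt, and the median number of AUGs was 4 against 1. At least 1 AUG was found in 331 members (94.3%) against 1155 other regions (66.2%). An AUG frame of at least 20 codons that ended within the 5′ UTR was found in 242 (68.9%) against 579 (33.2%). Within the 5′ UTRs of 300 to 900 nt the gap in AUG presence was narrower, at 97.7% of 214 members against 85.1% of 743 regions, with medians of 0.819 and 0.547 AUGs per 100 nt. Lengths were not matched within this band, and members were still longer, at a median of 532 nt against 449 nt. Median G+C content was 60.3% for members and 64.2% for the others. The 5′ UTR overlapped a CDS of another gene record in 25 members (7.12%) and in 14 other regions (0.802%). A longer 5′ UTR also collects more counts at a given density, so length moves with the measure that chose the members. A shorter CDS acts on the share in the same way. Median CDS length was 1017 nt in the 363 members and 1296 nt in the 1765 other regions.

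**Figure D1:**
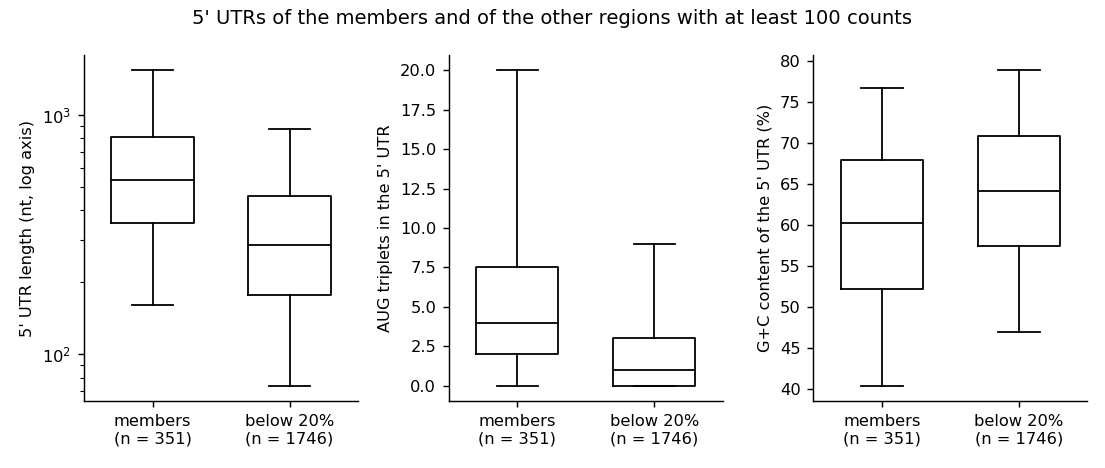
Length (nt, log axis), number of AUG triplets and G+C content (%) of the 5′ UTRs of 351 members and of 1746 regions with at least 100 5′ UTR counts and a share below 20%. Boxes span the quartiles around the median line and whiskers run from the 5th to the 95th percentile, and members sit at a median of 534 nt and 4 AUGs against 285 nt and 1 AUG.

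Members held 808675 5′ UTR counts, 52.8% of all 5′ UTR counts in the files, and most of these lay on few regions. A group of 9 regions whose CDS is listed as 75 nt held 610709 of them (75.5% of the members' counts). Among them are MTRNR2L1, MTRNR2L3, MTRNR2L6 and MTRNR2L10, nuclear copies of the mitochondrial 16S rRNA gene that carry a short humanin-like frame. Their 5′ UTRs were 79.2% to 89.3% identical to the mitochondrial MT-RNR2 rRNA. The region with most counts, ENST00000600213, has no symbol in the annotation used and held 395826 5′ UTR counts against 904 CDS counts. ENST00000544824 (44318 5′ UTR counts and 0 CDS counts) and ENST00000536684 (16258 and 910) are further regions of the group without a symbol. Reads with many hits were kept, so a read that fits several of these regions or the mitochondrial rRNA could count in more than 1 place, and the regions were not compared with each other.

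Of the other members with most 5′ UTR counts, WDR74, a ribosome biogenesis factor, had 47701 counts at a share of 94.7%, and 191 nt of its 5′ UTR are the U2 small nuclear RNA record RNU2-2P. SNHG32, a host gene of small nucleolar RNAs, had 8005 counts at 99.4%. ZNF146, a zinc finger protein, had 3579 counts at 53.4%, and SAMD4B, an RNA-binding protein of the Smaug family, 3222 at 21.3%. A further 23 members have no CDS positions in the files, because of which their share is at or near 100%. The 5 named for the highest share (100%) are such regions of CGGBP1, ANAPC11, BEX3, UBB and CITED2, with 746, 719, 628, 475 and 268 5′ UTR counts.

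Leaving out the 9 short-CDS regions, the 23 without CDS positions, and WDR74 and KCTD12, whose 5′ UTRs hold a small RNA record, 329 members remained, with 143557 5′ UTR counts (17.8% of the members' counts). Members without a matching transcript sequence could not be screened for such a record, and SNHG32 was not among those left out. Of the 351 members with a sequence, 26 (7.41%) had at least 50% of their 5′ UTR 26-nt stretches in transcripts of other genes. Among the regions below the share threshold 56 (3.21%) did, and this was not used to leave out members. In the 329 remaining members the median share was 29.3%. Per nucleotide, 5′ UTR counts were a median of 0.83 times as dense as CDS counts (quartiles 0.511 and 1.48), and 140 of 329 were denser on the 5′ UTR. The same ratio had a median of 0.195 in the 1765 regions below the share threshold. It uses the same counts as the share that chose the members, so a gap of this direction follows from the rule. MKKS, a chaperonin-like protein, was at 145 5′ UTR counts per 100 nt against 16.2 CDS counts per 100 nt. ATF4 was at 217 against 354, UCP2, a mitochondrial carrier, at 138 against 94.2, and PPP1R15A at 99.6 against 12.1.

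Most members stayed above the threshold in single libraries, and 210 of 363 were at 20% or more in all 8. Counts per member were modest, with 280 members under 500 summed 5′ UTR counts, so that the 95% Wilson interval of one library's share reached a median of 8.02 percentage points to either side. Intervals cover counting error only. The median SD between the 2 libraries of a group was 3.08 points. Just inside the threshold lay BTG1 (20%), CDR2L (20%) and TENT2 (20.1%), and just outside it NUDT2, ZNG1A and TULP4 (19.9% each).

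**Figure D2:**
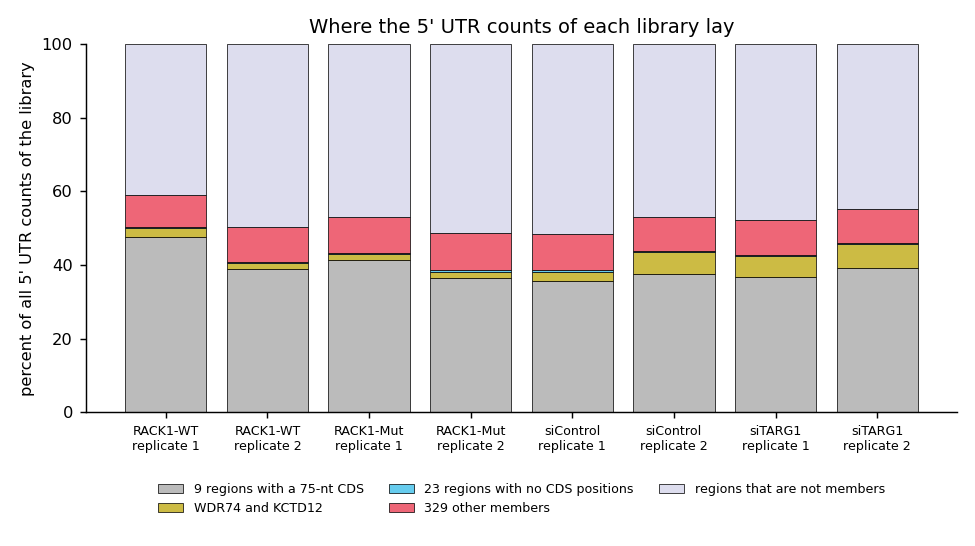
Percent of each library's 5′ UTR counts that fell on 9 regions with a 75-nt CDS (grey), on WDR74 and KCTD12 (yellow), on 23 regions without CDS positions (blue), on the 329 other members (red) and on regions that are not members (lavender). The 9 short-CDS regions held 35.8% to 47.7% and the 329 other members 8.58% to 10.2% in each library.

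CDS counts per library ran from 3100947 to 6604190 and 5′ UTR counts from 143030 to 287615. OVCAR3 markers were present (PAX8 at 369 to 587 and MUC16 at 905 to 2850 CDS CPM, counts scaled to library size), while PECAM1, CDH5, CD3E, LYZ and PDGFRA had 0 CDS counts. OARD1 had 7 and 6 CDS counts in siTARG1 against 138 and 58 in siControl (log2 fold change -3.94 ± 0.557 SE, adjusted p = 9.31e-11). RACK1, which reads from the re-expressed gene also reach, was at 14875 and 13103 CDS counts in RACK1-Mut and at 30190 and 28876 in RACK1-WT (log2 -0.42 ± 0.0601, adjusted p = 1.34e-08). The RACK1 counts are not scaled to depth, whereas the log2 change is. RACK1-Mut libraries held 4174707 and 3798750 CDS counts in all, against 6604190 and 6174010 in RACK1-WT. Matched mRNA levels were not used here, and footprint counts alone do not give translation efficiency.

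To ask whether footprints moved between the 5′ UTR and the CDS in RACK1-Mut, the pooled share of the members was first compared. RACK1 footprints also differed between the groups, and the design cannot separate this from the mutated sites. The pooled share was 74.3% and 70.6% in RACK1-WT and 69.4% and 69.0% in RACK1-Mut. The groups did not overlap, and the difference was -3.23 points with an SD of 2.57 in RACK1-WT. Without RACK1-WT replicate 1 it was -1.41 points. The short-CDS regions took 47.7% and 39.0% of the 5′ UTR counts in RACK1-WT and 41.3% and 36.4% in RACK1-Mut. In the 329 other members the pooled share was 32.6% and 34.2% in RACK1-WT and 32.5% and 34.0% in RACK1-Mut, so there the groups overlapped (33.4% ± 1.11 and 33.2% ± 1.1, SD, n = 2).

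No member was called for a change of its 5′ UTR share between RACK1-Mut and RACK1-WT. The test asked of each region whether 5′ UTR counts moved differently from CDS counts. Of 363 members, 329 had at least 10 counts in both parts, and 0 were called, as were 0 of all 6116 regions tested (0% called). At an unadjusted p under 0.05 there were 35 regions (0.572%), 1 of them a member, 199 (3.25%) and 8 by edgeR, and 120 (1.96%) and 5 by a quasi-binomial model added after seeing the data, and the last 2 tools also called 0 after adjustment. On simulated data of this comparison the DESeq2 test recovered 0 of 100 changes of 1 log2 unit and 51 of 100 of 2 log2 units. Changes were planted only in regions with at least 100 5′ UTR counts in this comparison, with 1 dispersion per part. Recovery in members with fewer counts was not simulated. Of the changes of 1 log2 unit, edgeR recovered 34 and the quasi-binomial model 30, so the calls of DESeq2 do not bear on shifts of that size. The members' log2 changes had a median of -0.03, as had all regions tested, and 280 of 329 were within 0.5 of 0.

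The member with the smallest unadjusted p was the CRHR1/LINC02210-CRHR1 region, which holds the corticotropin-releasing hormone receptor. Its share was 50% and 61.6% in RACK1-WT and 77.8% and 83.3% in RACK1-Mut, from 34, 53, 42 and 45 5′ UTR counts (log2 1.85 ± 0.838 SE, DESeq2 adjusted p = 1.0). RNF43, a ubiquitin ligase of Wnt signalling, stood at 54.1% and 44.1% against 76.9% and 76.7%, on 20, 15, 10 and 23 5′ UTR counts. ITGB1BP1, an integrin-binding protein, was at 15.7% and 13.1% against 35.9% and 22.9%, C6orf47 at 15.0% and 22.6% against 23% and 34.9%, and COA1, a mitochondrial assembly factor, at 31.5% and 30.3% against 39.9% and 39.6%. In the other direction, BPGM, which makes 2,3-bisphosphoglycerate, was at 41.3% and 34.5% in RACK1-WT and at 27.6% and 22.7% in RACK1-Mut. CDC26, a subunit of the anaphase-promoting complex, was at 52.3% and 48.6% against 35.0% and 36.6%. CRLS1, cardiolipin synthase, JOSD1, a deubiquitinase, and the CENPS/CENPS-CORT region complete the 5 by this rule, at 30.1% and 28.9% against 19.0% and 21.4%, at 45.7% and 44.9% against 31.7% and 32.3%, and at 43.9% and 47.1% against 32.2% and 35.0%. None of these 10 was called, and groups without overlap were about as frequent in members (93 of 329, 28.3%) as over all regions (30.1%).

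Of a list of 32 mRNAs known for uORFs or for starts at other codons, 17 had a member region, and 16 of these could be tested. No listed mRNA was called for its share in RACK1-Mut against RACK1-WT. ATF4, the transcription factor of the integrated stress response, had 473 and 491 5′ UTR counts and 672 and 652 CDS counts in RACK1-WT, and 313 and 312 against 331 and 310 in RACK1-Mut. Its share was 41.3% and 43.0% in RACK1-WT and 48.4% and 49.9% in RACK1-Mut, without overlap (log2 share change 0.42 ± 0.519 SE, adjusted p = 1.0). Divided by size factors, ATF4 5′ UTR counts were level at 383.6 ± 25.2 and 392.2 ± 26.9 (SD, n = 2), and CDS counts stood at 526.4 ± 9.47 and 401.6 ± 9.82 (log2 -0.39 ± 0.13, adjusted p = 1.0 by DESeq2 and 0.0473 by edgeR).

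Other listed members were not called in the RACK1 comparison either. UCP2 was at 50.7% and 53.1% in RACK1-WT against 58.8% and 57.4% in RACK1-Mut, ASNSD1 at 40.6% and 49.4% against 56.5% and 51.6%, and ATF5, an ATF4-related factor, at 45.6% and 53.3% against 65.6% and 54.5%. MKKS overlapped at 79.4% and 88.2% against 82.5% and 84.6%, as did AZIN1 at 44.6% and 48.6% against 46.5% and 49.9%. In all, 11 of the 16 had a positive log2 change and the median was 0.10, beside a median of -0.03 over all regions. Leaving out RACK1-Mut replicate 2 gave 8 positive values, and leaving out RACK1-WT replicate 2 gave 13, the lowest and highest counts without 1 library, with medians of 0.07 to 0.20, while the median over all regions ran from -0.16 to 0.12. The log2 changes of ATF4, ATF5, ASNSD1 and UCP2 were each smaller than their SE. The smallest DESeq2 SE of any of the 329 members tested here was 0.508, so a change below that could not exceed its SE. The quasi-binomial SEs of these members were lower, with a smallest of 0.189 and a median of 0.41.

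In the siRNA experiment the ATF4 share was 44.4% and 49.6% in siControl and 42.6% and 40.9% in siTARG1, without overlap (log2 -0.31 ± 0.557, adjusted p = 0.999). ATF4 CDS counts rose, from 356.8 ± 32.7 to 507.7 ± 10.4 normalized counts (log2 0.51 ± 0.145, adjusted p = 0.00493). ATF4 5′ UTR counts were 317.2 ± 18.2 and 364.4 ± 25.6 (log2 0.20, adjusted p = 0.846). The CDS call was lost without any one of the 4 libraries, where the adjusted p ran from 0.0851 (without siControl replicate 1) to 0.279 (without siTARG1 replicate 1). Whether the effect on ATF4 share differed between the experiments was not tested.

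All 16 testable uORF list members had a log2 share change at or below 0 in siTARG1, with a median of -0.31 beside -0.06 over all regions tested and -0.03 over all members. None was called, and the count depends on scaling, since 12 of the 16 were negative when 5′ UTR counts were scaled by their own size factors. Between 11 and 15 were negative when 1 library was left out, 11 of them without siTARG1 replicate 2. AMD1 stood lowest, at 34.4% and 37.5% in siControl and 24.7% and 25.5% in siTARG1 (log2 -0.74 ± 0.621, p = 0.236 by DESeq2 and 0.00951 by the quasi-binomial model). EIF5, the GTPase-activating protein of eIF2, was at 33.3% and 31.0% against 26.5% and 24.2%. AZIN1 was at 56.6% and 64.3% against 47.3% and 56.5%, and ATF5 at 66.7% and 79.5% against 60.7% and 60.5%. In MIEF1 both groups were alike at 36.1% and 31.8% against 33.6% and 33.7%. DDIT3 had few 5′ UTR counts here (14, 13, 30 and 7), with shares of 56.0% and 48.1% against 55.6% and 28.0%.

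UCP2 was at 65.4% and 63.3% against 61.7% and 57.9%, MKKS at 89.0% and 84.5% against 81.9% and 81.4%, and ASNSD1 at 42.5% and 39.7% against 43.8% and 36.1%. Shares without overlap thus occurred in some of these mRNAs and not in others. PPP1R15A was at 56.2% and 57.6% in siControl and 57.6% and 50% in siTARG1, and PPP1R15B at 28.3% and 28.9% against 28.1% and 22.1%. IFRD1, an interferon-related regulator, was at 42.6% and 36.4% against 35.9% and 28.4%, while its CDS counts rose (log2 1.06 ± 0.37, adjusted p = 0.028). SAT1, the polyamine acetyltransferase, was at 40.4% and 38.2% against 38.1% and 33.3%, and BACE1, the beta-secretase, at 32.0% and 25% against 23.3% and 32.1%. SLC35A4, a member of the nucleotide sugar transporter family with a 103-codon upstream frame, has no CDS positions in its region, and its 5′ UTR counts were 11 and 11 against 18 and 17.

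**Figure D3:**
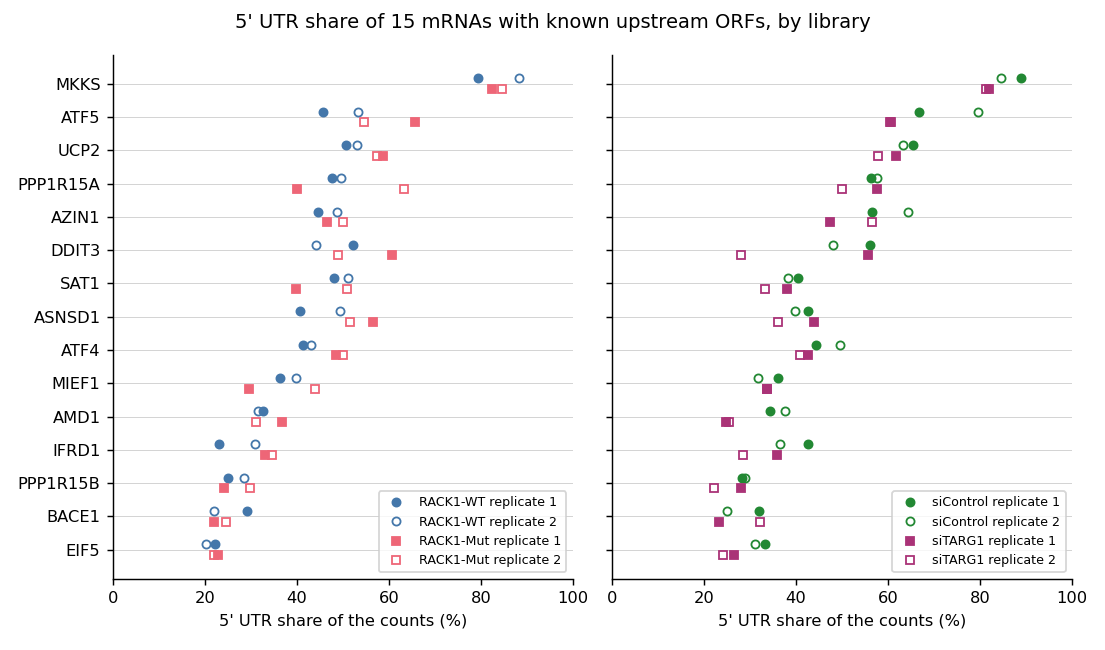
5′ UTR share of counts (%, x axis) of 15 testable members on the uORF list (y axis), left for RACK1-WT (circles) and RACK1-Mut (squares), right for siControl (circles) and siTARG1 (squares), with replicate 1 filled and replicate 2 open. ATF4 in RACK1-Mut sits at 48.4% and 49.9%, right of RACK1-WT, and AMD1 in siTARG1 at 24.7% and 25.5%, left of siControl.

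Across all members, no 5′ UTR share was called in siTARG1 against siControl either. Of 327 members tested 0 were called, as were 0 of 5334 regions (0% called), with 102 regions (1.91%) and 1 member at an unadjusted p under 0.05, 292 (5.47%) and 7 by edgeR, and 224 (4.2%) and 20 by the quasi-binomial model. That member was TMEM139, a membrane protein named here after its values were seen, with 32.8% and 50% in siControl and 14.3% and 7.59% in siTARG1. Without siControl replicate 2 the quasi-binomial model called 2 members, WDR74 and KCTD12, and otherwise it called 0. In simulated data 1 of 100 changes of 1 log2 unit and 33 of 100 of 2 log2 units were recovered. These too were planted only in regions with at least 100 5′ UTR counts in the comparison. Groups did not overlap in 126 of 327 members (38.5%) and in 34.6% of all regions. The pooled share of all members was 67.5% and 70.6% in siControl against 69.1% and 71.0% in siTARG1, and that of the 329 other members 33.3% and 34.2% against 33.1% and 34.3%, so the groups overlapped in both.

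KCTD12, a channel tetramerization domain protein, had the smallest p of the rises that met the naming rule. Its share was 22.2% and 50.5% in siControl and 58.4% in both siTARG1 libraries (log2 1.37 ± 0.884, DESeq2 adjusted p = 0.999). The siControl libraries stood far apart, with 124 and 47 CDS counts beside 36 and 50 5′ UTR counts, and 80 nt of the 5′ UTR carry a microRNA record. Its CDS counts fell (log2 -1.23 ± 0.413, adjusted p = 0.0215). CHST2, a sulfotransferase, was at 48.5% and 52.8% against 68.7% and 73.9%, and its CDS counts fell (log2 -1.93 ± 0.563, adjusted p = 0.00585). HIKESHI, the nuclear import carrier of HSP70, was at 15.8% and 25.9% against 36.4% and 30.9%, and POMZP3 at 80.2% and 77.4% against 88.1% and 90.9%. The short-CDS region ENST00000604093 was at 34.1% and 38.3% against 51.7% and 47.8%. WDR74, with its U2 record, had 4214 and 8231 5′ UTR counts in siControl and 10231 and 9394 in siTARG1, while its CDS counts were 389, 288, 405 and 349.

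Of the falls, AREL1, a ubiquitin ligase, was at 36.9% and 40.3% in siControl and 21.2% and 24.7% in siTARG1. Its 5′ UTR counts were 45, 31, 51 and 42, and the CDS counts rose (log2 1.30 ± 0.283, adjusted p = 8.83e-05). NIPAL3, a magnesium transporter-like protein, was at 26% and 41.9% against 21.0% and 13.2%, and its CDS counts rose too (log2 1.31 ± 0.421, adjusted p = 0.0148). IPO13, an importin, was at 27.7% and 28.2% against 11.9% and 17.6%, DSCR8 at 94.1% and 79.4% against 63.9% and 60.5%, and NBPF15 at 78.0% and 96.6% against 74.4% and 75%. In KCTD12, CHST2, AREL1 and NIPAL3 the CDS counts were called and the 5′ UTR counts were not. The CDS test has more power, and on simulated data of this comparison DESeq2 recovered 93 of 100 CDS changes of 1 log2 unit. It recovered 16 of 100 such 5′ UTR changes, so this contrast does not show that the 5′ UTR counts stayed level.

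Counts on the 5′ UTR itself were then tested. In RACK1-Mut against RACK1-WT, 0 of 363 members and 0 of 6257 regions were called (0% called), with 16 regions and 3 members at an unadjusted p under 0.05, and 0 called by edgeR. In siTARG1 against siControl 25 of 5455 regions were called (0.458%), of which 8 were members, out of 361 tested (2.22%). Both regions that rose (0.0367% of those tested) and 6 of the 23 that fell (0.422%) were members. Among the regions that also had 100 counts but a lower share, 17 of 1761 were called. DESeq2 gave no adjusted p to 3596 regions, 47 of them members. These could not be called but are counted in the percentages, and they were a larger part of all regions than of members. The 8 calls did not hold without 1 library, with 0 member calls left without siControl replicate 1, 1 without siControl replicate 2, and 0 without siTARG1 replicate 1 or replicate 2.

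All 8 are named, whatever their counts. Of these 8 members, 6 fell. Normalized 5′ UTR counts of C17orf58 (chr17:65987215-65992585) were 38.7 and 39.32 in siControl and 8.333 and 5.622 in siTARG1 (log2 -2.46 ± 0.604, adjusted p = 0.00905). MAPK6 (chr15:52244303-52359572), the atypical kinase ERK3, was at 46.61 and 45.28 against 14.17 and 8.995 (log2 -1.96 ± 0.519, adjusted p = 0.0165), and its 5′ UTR holds 15 AUGs and an annotated upstream CDS of 17 codons. PCDH19 (chrX:99546642-99665271), a protocadherin, was at 88.83 and 97.71 against 26.67 and 34.85 (log2 -1.61 ± 0.352, adjusted p = 0.0015). The groups were well apart in each of these.

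The region that joins NR2F6, a nuclear receptor, and USHBP1 was at 81.79 and 77.45 against 31.67 and 16.87 (log2 -1.69 ± 0.396, adjusted p = 0.00538), and the reads of the joined genes cannot be told apart. CANT1 (chr17:76987798-77005949), a nucleotidase of the Golgi, was at 73.88 and 79.84 against 35.0 and 25.86 (log2 -1.32 ± 0.37, adjusted p = 0.0302). ZDHHC5 (chr11:57435219-57468654), a palmitoyltransferase, was at 94.11 and 109.6 against 46.67 and 46.1 (log2 -1.13 ± 0.316, adjusted p = 0.0299).

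Of the 2 rises, DCAF16 (chr4:17802278-17812381), a substrate receptor of CUL4 ubiquitin ligases, was at 45.73 and 53.62 in siControl and 105.0 and 125.9 in siTARG1 (log2 1.22 ± 0.307, adjusted p = 0.00991). FGF18 (chr5:170846651-170884630), a fibroblast growth factor, was at 8.795 and 4.766 against 30.83 and 35.98 (log2 2.26 ± 0.642, adjusted p = 0.0323), from 10 and 4 counts in siControl.

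In 6 of these 8 members the CDS counts were called too, and in the same direction. CDS log2 changes were -1.97 for C17orf58, -2.19 for MAPK6, -1.91 for PCDH19, -1.54 for the NR2F6 and USHBP1 region, -0.63 for ZDHHC5 and 1.03 for DCAF16. In CANT1 (-0.55, adjusted p = 0.112) and FGF18 (1.32, adjusted p = 0.0509) the CDS was not called. The share was called for none of the 8. The share of MAPK6, for example, was 43.4% and 46.3% in siControl and 53.1% and 42.1% in siTARG1, and the groups overlapped.

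**Figure D4:**
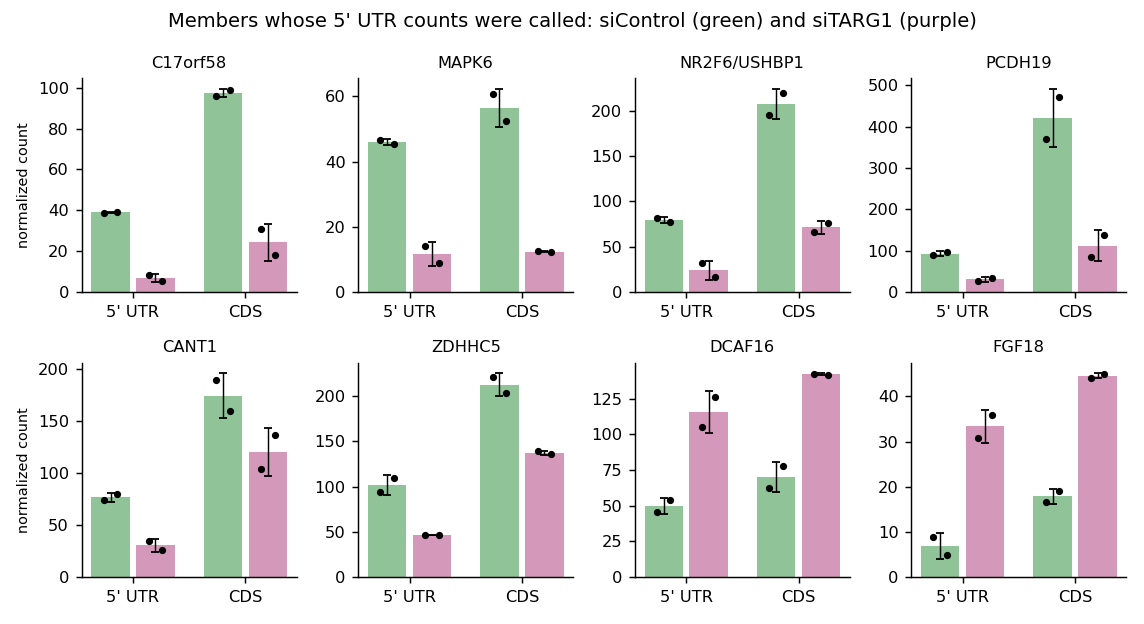
Normalized counts (y axis, counts divided by size factors from the CDS counts) on the 5′ UTR and the CDS of the 8 members whose 5′ UTR counts were called, in siControl (green) and siTARG1 (purple). Bars are means, points the 2 libraries and error bars the SD, and in all 8 the CDS bars differ in the same direction as the 5′ UTR bars.

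Over all members the CDS counts of 38 of 327 were called in siTARG1 (11.6%; 16.4% of all 12056 regions), 13 higher (7.18% of all regions) and 25 lower (9.19%), and without 1 library 5 (siControl replicate 1 or siTARG1 replicate 1), 8 (siTARG1 replicate 2) or 10 (siControl replicate 2) were called. In RACK1-Mut 0 of 329 members were called (0.0799% of all 12520 regions), 2 at an unadjusted p under 0.05, and 1 by edgeR, which was ATF4. In siTARG1 the CDS counts of 524 of 1761 regions with at least 100 5′ UTR counts and a lower share were called. Members were not matched to other regions by CDS counts. Of the 38 members called in siTARG1, 36 had a 5′ UTR log2 change of the same sign. Among the called members the lowest CDS log2 changes besides that of MAPK6 were those of MBNL2, a splicing regulator (-2.34), and RBSN, an endosomal protein (-2.03), and the highest those of SLC25A40, a mitochondrial glutathione carrier (1.81), and TMEM139 (1.37). These 4 were chosen after their values were seen.

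Across members, the 5′ UTR and CDS log2 changes had a Pearson r of 0.594 in siTARG1 against siControl (n = 327 regions) and of 0.0218 in RACK1-Mut against RACK1-WT (n = 329). Regions with 100 counts and a lower share gave 0.656 (n = 1761) and 0.0882 (n = 1763). The points share libraries, size factors and mRNAs, and regions are not replicates.

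**Figure D5:**
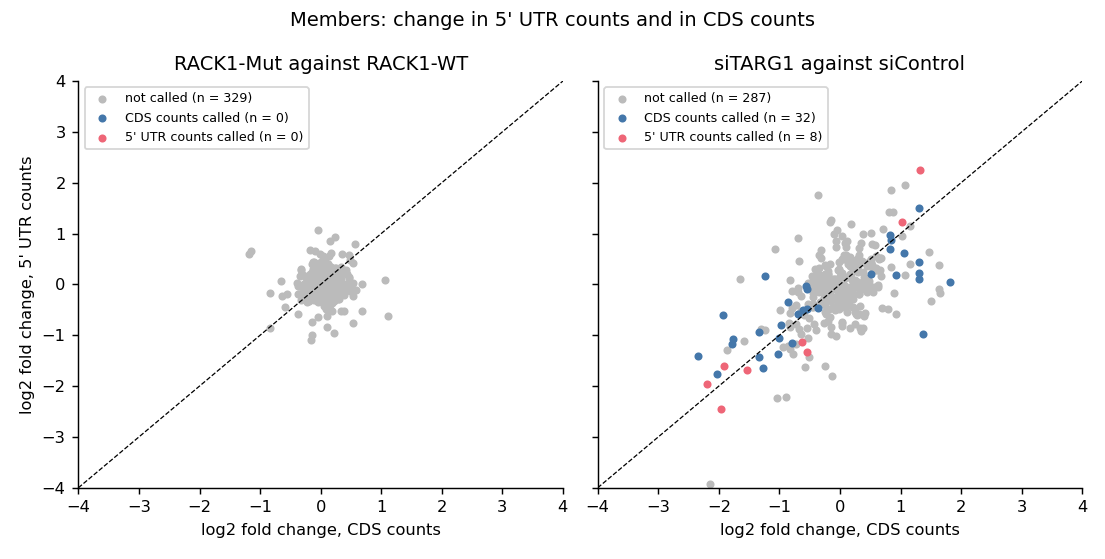
Log2 fold change of 5′ UTR counts (y axis) against that of CDS counts (x axis) for each member tested on both, left for RACK1-Mut against RACK1-WT (329 members) and right for siTARG1 against siControl (327 members), with equal change on the dashed line. Grey points were not called, blue points had called CDS counts and red points called 5′ UTR counts, and calls of either kind occur in the right panel alone.

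Other genes that act on start codon choice were read from their CDS counts. Of 48 listed initiation and reinitiation factors, 46 were tested. In siTARG1 15 were called, 4 higher and 11 lower, with a median log2 change of -0.03 beside 0.00 over all regions. Of all regions 16.4% were called (7.18% higher and 9.19% lower). Among the 1761 regions with at least 100 5′ UTR counts and a lower share, the CDS counts of 524 were called. Neither this list nor that of the ATF4 targets was matched to other regions by counts. BZW1, an inhibitor of eIF5, fell (log2 -1.01 ± 0.114, adjusted p = 7.77e-17), as did the reinitiation factor MCTS1 (-0.61 ± 0.171, adjusted p = 0.00383) and EIF5B, which joins the subunits (-0.46 ± 0.154, adjusted p = 0.022). EIF2AK4, the eIF2 kinase GCN2, rose (0.93 ± 0.242, adjusted p = 0.00148). Of 24 listed ATF4 targets, all tested, 13 were called in siTARG1, 8 higher and 5 lower, beside the same shares of all regions, and their median log2 change was 0.42 beside 0.00. SESN2, an inhibitor of mTORC1, rose (1.26 ± 0.269, adjusted p = 6.01e-05), and PSAT1, of serine synthesis, fell (-1.45 ± 0.132, adjusted p = 1.49e-25). In RACK1-Mut 0 of the 46 factors were called, with 1 of the 24 targets lower (0.0799% of all regions), the amino acid transporter SLC7A5 (-0.54 ± 0.0942, adjusted p = 5.36e-05). ATF5, DDIT3 and PPP1R15A are on both the target list and the uORF list. The genes named from these 2 lists were chosen after their values were seen.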

How the data were processed

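Ribo-seq footprints of 8 OVCAR3 libraries in 4 groups were analysed. Per the labels and methods, the authors removed rRNA reads with Bowtie 1.1.2, aligned the rest to transcripts with TopHat2 2.1.1 (versions also in the submitters' processing notes) with many hits per read allowed, and used Plastid. No source used here says whether unique molecular identifiers were collapsed. The authors deposited counts (whole numbers) over the exons, 5′ UTR, CDS and 3′ UTR of merged regions (hg19, GENCODE release 24), from reads of 26 to 36 nt. Per the file headers a read was placed 14 nt from its 5′ end, but the study's methods count from the opposite end. The discrepancy was not resolved, and it bears on footprints at CDS edges.

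The members and all 3 gene lists were chosen with earlier results of these data known. Symbols (19612 of 20165 regions), coordinates and sequences came from GENCODE release 44 on GRCh37. A 5′ UTR was read from 1 transcript per region. Share changes were tested with DESeq2 1.42.0 (R 4.3.3) in 1 model of 5′ UTR and CDS counts (library, part, and part by condition), and 5′ UTR and CDS counts each in a model of the condition, with size factors from CDS counts and at least 10 summed counts per part. Regions to which DESeq2 gave no adjusted p were not counted as called. Alternatives were edgeR 4.0.16 (quasi-likelihood, TMM), other filters, size factors, denominators and thresholds, all 8 libraries, a replicate term, and each library left out. A quasi-binomial share model (dispersion moderated with limma 3.58.1) and the 329-member pooled share were added after seeing the data. The tests were run on simulated counts first.

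Named genes were the 10 members with most 5′ UTR counts, the 5 with the highest share, members on the uORF list (1 of them is counted but not reported here), the 5 largest called changes per direction (or smallest p) without overlap and with 20 5′ UTR counts in every group, the members at the threshold, RACK1 and OARD1. The 8 members with called 5′ UTR counts fall outside this rule and were all named after their values were seen. The replicate numbers pair nothing in the labels. Deviations of same-numbered libraries correlated at r = 0.13 (RACK1) and 0.047 (siRNA) over regions, so they were not used as pairs. In every group, however, replicate 2 had fewer CDS counts and a higher pooled share of the 329 other members than replicate 1. For all members pooled, replicate 2 was higher in siControl and siTARG1 and lower in RACK1-WT and RACK1-Mut. The SDs within groups include such differences, and their source was not tested.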

Additional observations from a re-analysis of the deposited data

How the results depend on the processing

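The counts of share calls stayed at 0 for regions and members in both comparisons under edgeR, other filters, own 5′ UTR size factors, the CDS plus 3′ UTR denominator, all 8 libraries and the replicate block, and without any one library. The added quasi-binomial model also called 0, except that without siControl replicate 2 it called 2 regions, both members (WDR74 and KCTD12), so its range was 0 to 2. 5′ UTR counts in RACK1-Mut gave 0 calls throughout. In siTARG1 (25 regions, 8 members) edgeR called 100 and 15, the fit of all 8 libraries 43 regions, a filter of 10 counts in every library 5 members, and the replicate block 3 and 0. Leaving out 1 library gave 1 to 2 regions and 0 to 1 members. CDS counts in RACK1-Mut (10 regions, 0 members) went to 30 and 1 by edgeR and to 6 regions with the replicate block, and to 1 to 3 regions without 1 library. In siTARG1 (1974 and 38) they went to 3470 and 66 by edgeR, to 1125 and 18 with the replicate block, to 58 members in the fit of all 8 libraries, and to 564 to 744 regions and 5 to 10 members without 1 library. The pooled share difference in the RACK1 comparison (-3.23 points) became 0.259 as a median over members and -0.127 for the 329 other members, and ranged over the other settings on the same side of 0. The causes of these moves were not tested, beyond the loss of a library. No paired design was found in the labels. In all, 40 values of genes named for a share change or a called 5′ UTR count, and of ATF4, were followed. Of their 415 values under alternatives 355 kept direction and side of the threshold, 54 were weaker, 6 stronger and none turned sign. The genes named for a share change were chosen for groups without overlap, and the ATF4 shares did not overlap either. Leaving out 1 library could therefore hardly turn these signs, and the lack of reversals is no measure of stability. Other uORF list members were followed as a count, and some did turn sign, with 0 of 16 positive in siTARG1 becoming 4 with own 5′ UTR size factors and 1 to 5 without 1 library. The recovery of share changes depended on the test. On simulated counts the quasi-binomial model recovered 30 of 100 changes of 1 log2 unit in the RACK1 comparison and 16 in the siRNA comparison, edgeR 34 and 13. These changes lay only on regions with at least 100 5′ UTR counts in the comparison.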
